A study of Mus musculus with 426 samples.

Results

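The mouse genes for the proteins of the cytosolic ribosome were followed across single cells of a transplanted pancreatic tumour. Members were all rows of the RNA table whose symbol began with Rpl or Rps and a digit, together with Rplp0, Rplp1, Rplp2 and Rpsa. S6 kinase genes and pseudogene symbols were left out. The rule took 89 of 24424 genes. Of these, 53 were named for the large subunit and 34 for the small subunit, and 2, Rpl7l1 and Rps19bp1, matched by symbol but do not carry the name of a subunit protein.

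The study read RNA and DNA of 1 cell in 1 tube, and the submitters took exonic reads as RNA and other reads as DNA. Male C57BL/6 mice aged 6 to 8 weeks received 50000 KPC1199-EGFP cells, a mouse pancreatic cancer line that carries enhanced green fluorescent protein (GFP), in matrigel in the pancreas, and the tumours grew for 6 to 8 weeks. Live cells, gated with Calcein Violet, came from 3 such mice, and no group without a tumour is part of the comparisons. From the primary tumour in the pancreas 4 sorts were made: GFP+, GFP+EpCAM+, EpCAM+ and CD45+. EpCAM is an epithelial surface protein and CD45 a leukocyte surface protein, and the labels give no GFP gate for the EpCAM+ sort. GFP+ cells were also sorted from metastases in the peritoneum (3 mice) and in the kidney, liver and spleen (mice 2 and 3 only). GFP+ cells of every site thus trace to that 1 line.

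The deposit holds 426 libraries, of which 420 are single cells and 6 are bulk. A pair of libraries deposited under 2 names occurred 2 times in the peritoneum of mouse 1, where the libraries differed by less than sampling noise (chi-square per degree of freedom 0.735 and 0.854, next lowest pair 1.61), so each pair was counted as 1 cell. Of the resulting 418 cells, 368 had at least 500 genes and 10000 RNA counts. RNA totals of these cells ran from 10805 to 17845616 counts with a median of 1016776. The mouse was the replicate: counts were summed over the cells of a mouse and group, which gave totals of 535652 to 84359744, and expressed as counts per 1000000 (CPM). The sums are uneven: in mouse 2, 1 cell alone supplied 75.3% of the liver total and another 63.2% of the EpCAM+ total. Sorts matched their markers in that the summed level of 8 leukocyte genes was 7118 to 9620 CPM in CD45+ cells and at most 193 CPM in the GFP+, GFP+EpCAM+ and EpCAM+ sorts. The 8 epithelial genes summed to 16778 to 26434 CPM in GFP+EpCAM+ cells and 12172 to 22719 CPM in EpCAM+ cells, but to 920 to 9934 CPM in GFP+ primary cells, in which 8 fibroblast genes reached 2445 to 14723 CPM.

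Each ribosome carries 1 copy of most of these proteins, so cells make them in matched amounts, and growing cells devote much of their transcription to them. Their messages typically begin with a run of pyrimidines at the 5′ end, and this run places their translation under the control of mTORC1, a kinase complex that responds to nutrients and growth factors. Free Rpl5 and Rpl11, bound to 5S ribosomal RNA, also inhibit Mdm2 and so raise p53, which links ribosome assembly to a tumour suppressor. Several members have paralogs with tissue-specific use or with targets outside the ribosome. Ribosomal protein genes have many processed copies in the genome, and how reads that match several places were counted is not given in those sources that were used here, so the level of any single member is uncertain.

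Start sites with and without such a run are shown here because the group is known for it, with 20 bases before to 10 bases after each start annotated in RefSeq on build GRCm38.p6. The unbroken run of C and T that covers the start, of at least 5 bases on the transcript strand, is in capitals. With a run, the examples are Rplp2 (chr7:141447631-141447660, plus strand), Rps6 (chr4:86857358-86857387, minus strand), Rps27 (chr3:90213639-90213668, minus strand), Rpl38 (chr11:114668560-114668589, plus strand) and Rpl39 (chrX:37085213-37085242, minus strand). Without one, they are Rplp0 (chr5:115559447-115559476, plus strand), Rpl4 (chr9:64173367-64173396, plus strand) and Rps3 (chr7:99483700-99483729, minus strand).
Rplp2: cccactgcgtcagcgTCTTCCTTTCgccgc
Rps6: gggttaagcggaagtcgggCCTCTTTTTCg
Rps27: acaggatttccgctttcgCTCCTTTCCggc
Rpl38: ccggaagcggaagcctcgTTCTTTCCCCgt
Rpl39: ccccccctaagctccgCCTCTagcgacttc
Rplp0: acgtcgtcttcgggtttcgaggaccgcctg
Rpl4: agtctttccttttcctgtgggagcagccgg
Rps3: gaacacttgcaagggtcgccgcgctgcgcg
RefSeq promoters matched 68 of the 89 symbols and gave 80 starts. A run of at least 5 bases covered the start in 22 of the 80 (27.5%), against 10.1% of all 32851 promoters in the table, and a run of at least 8 bases in 18 (22.5%), against 3.86%. The ETS core CCGGAA, sought on both strands between 250 bases before and 50 after the start, was present in 37 (46.2%), against 14.9% of all promoters. TATAAA, sought on both strands in the same window, was present in 8 (10.0%), against 13.6%. A match is a description of the letters at the annotated start, which may differ by a few bases from the start used in these cells.

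Single members were often missed in single cells. The median member had a count in 83.97% of the 368 cells, and in 31.3% once each cell was thinned to 10000 counts. A count in at least 50% of cells was reached by 76 members. Among the 13 others were the core proteins Rpl28, with a count in 2.2% of cells, Rpl26 in 26.4%, Rps12 in 38.3% and Rpl30 in 46.2%. Rpl28 was nearly absent from the sums as well, with 2 of 201443709 counts in GFP+ primary cells and 0 of 74978631 in CD45+ cells. The reason was not tested. The 10 members with most counts held 50.4% of all member counts, led by Rpl4 with 9.99%, Rps3 with 7.87%, Rplp0 with 6.73% and Rps9 with 5.72%. These shares are not corrected for transcript length and do not rank the genes by molecules.

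Among the sorts of the primary tumour, ribosomal protein RNA made up the largest share of the median cell's RNA counts in GFP+ cells and the smallest in CD45+ leukocytes. The median over the cells of a mouse was 1.38%, 1.18% and 1.11% in GFP+ primary cells of mice 1, 2 and 3 (mean of mice 1.22% ± 0.142, SD, n = 3; 76 cells). In CD45+ cells it was 0.452%, 0.616% and 0.309% (0.459% ± 0.154, SD, n = 3; 56 cells), so that every mouse lay below every mouse of the other 3 sorts. Both EpCAM sorts lay between. GFP+EpCAM+ cells gave 0.692%, 0.778% and 0.768% (0.746% ± 0.0470, SD, n = 3; 31 cells), and EpCAM+ cells gave 0.706%, 0.937% and 0.718% (0.787% ± 0.130, SD, n = 3; 25 cells). By this median, these 2 sorts overlapped each other and neither overlapped the GFP+ sort. The share of the summed counts of a mouse was 1.18%, 1.24% and 1.16% in GFP+ cells, 1.07%, 1.27% and 0.873% in GFP+EpCAM+ cells, 0.894%, 1.19% and 0.899% in EpCAM+ cells and 0.626%, 0.574% and 0.383% in CD45+ cells. On this measure both EpCAM sorts overlapped the GFP+ sort, and the CD45+ sort still lay below all 3. The share is a summary over the members and carries no test.

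Low shares were frequent among single leukocytes. Of 56 CD45+ cells, 28 (50.0%) had a share under 0.5%, against 3 of 76 GFP+ primary cells (3.95%). The range of single cells was 0.00988% to 3.10% in the CD45+ sort and 0.283% to 3.71% in the GFP+ primary sort, so the 2 sorts overlap cell by cell. At 10000 counts per cell the median cell showed 35, 38 and 34 members in GFP+ primary cells of mice 1 to 3 and 14, 23 and 8.5 members in CD45+ cells. The number of DNA reads per RNA count also differed, with mouse medians of 0.759, 0.131 and 0.111 in GFP+ primary cells and 2.42, 0.237 and 0.635 in CD45+ cells. With cells of more RNA than DNA counts alone, the shares were 1.24%, 1.44% and 1.11% in GFP+ primary cells and 0.624%, 0.674% and 0.419% in CD45+ cells, again without overlap. In the same cells the EpCAM+ sort gave 0.706%, 1.21% and 1.16% and overlapped the GFP+ primary sort. The GFP+EpCAM+ sort gave 0.632%, 0.937% and 0.768% there and overlapped the CD45+ sort, whose mouse 2 lay above its mouse 1.

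**Figure D1:**
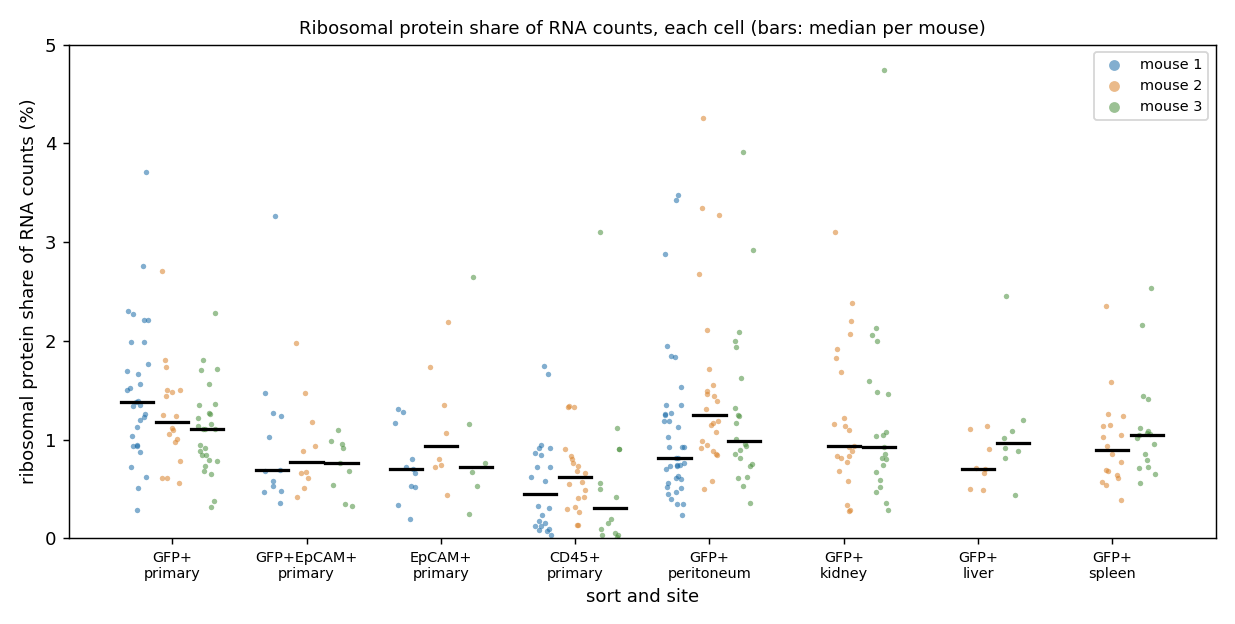
Share of RNA counts in ribosomal protein genes (percent) for each of the 368 cells, by sort or site and coloured by mouse, with bars at the median of each mouse. The CD45+ bars, at 0.309% to 0.616%, sit below those of the other primary sorts, and the GFP+ primary bars sit at 1.11% to 1.38%.

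Cells rich in large subunit RNA were also rich in small subunit RNA. Across the 368 cells the Spearman correlation of the 2 shares was 0.781, and within groups it ran from 0.515 in 25 EpCAM+ cells to 0.877 in 44 kidney cells. Both shares come from the same library and the same total, and cells of 1 mouse share their source, so the correlation is a description. The cytosolic share followed the share of 77 mitochondrial ribosomal protein genes with a correlation of 0.595 over all cells and of 0.346 to 0.859 within groups. With the RNA depth it was 0.131 over all cells. Within groups the relation with depth had both signs, from −0.515 in 16 liver cells to 0.454 in 44 kidney cells.

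**Figure D2:**
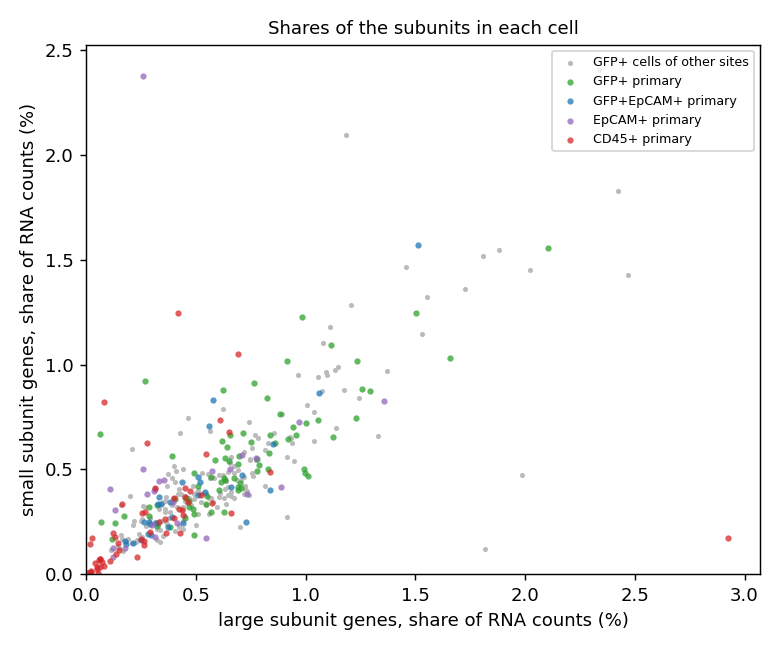
Large subunit share against small subunit share of RNA counts (percent) in each of the 368 cells, coloured by group. The points rise together, with a Spearman correlation of 0.781 over all cells.

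CD45+ leukocytes had lower values than GFP+ tumour cells of the primary tumour for most members. Of the 87 members that passed the filter on low counts, 81 had a lower fitted level in CD45+ cells and 6 a higher one, and the median log2 difference was −1.26, against 0.20 for all 19703 genes tested. The mice did not overlap, with CD45+ lower, for 54 members (62.1%), against 11.6% of all genes, and no member was higher without overlap, against 6.54% of all genes. The lower count was 56 (64.4%, against 11.2%) without the deepest cell of each sum, 49 (56.3%, against 13.1%) with cells of more RNA than DNA counts, and 73 (83.9%, against 12.2%) by the mean of log2(CPM + 1) over cells. No member passed an adjusted p of 0.05 in edgeR's quasi-likelihood test (smallest adjusted p = 0.25), which called 0.817% of all genes, and 1 member, Rpl37a, had an unadjusted p under 0.05, against 17.3% of all genes. DESeq2 called no member either, and 5.02% of all genes lower. With the mean of log2(CPM + 1) over the cells of a mouse as the value, so that each cell weighed the same, limma called 23 members lower in CD45+ cells and none higher, while 2.75% of all genes were called lower. With a pseudocount of 0.1 it called 38 members, against 3.86% of all genes. The median of members was below 0 and below that of all genes in 14 of 14 alternatives, although its size depended on the scaling: with DESeq2's size factors all genes had a median of 0.94 in place of 0.20, and members one of −0.58. P-values here measure the spread between 3 mice of 1 tumour line, and a p that misses the threshold does not show that levels were alike.

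The 23 members called with cells weighted alike comprised 15 of the large subunit, 7 of the small subunit and Rpl7l1. Rpl8, a large subunit protein near the catalytic centre, differed by −3.89 on that mean log2 scale (SE 0.98, limma adjusted p = 0.00939). For Rpl30 the difference was −3.00 (SE 0.73, limma adjusted p = 0.00614). Other calls included Rpl3 at −3.82 and Rplp0 at −3.25. The same members were not called on the sums, where Rpl8 differed by −1.66 (SE 1.15, edgeR adjusted p = 0.469). Its summed level was 69.4, 125 and 144 CPM in CD45+ cells and 247, 445 and 468 CPM in GFP+ primary cells, and the mice did not overlap. Fewer cells with the RNA and less RNA per cell enter a mean of logs together and were not separated.

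**Figure D3:**
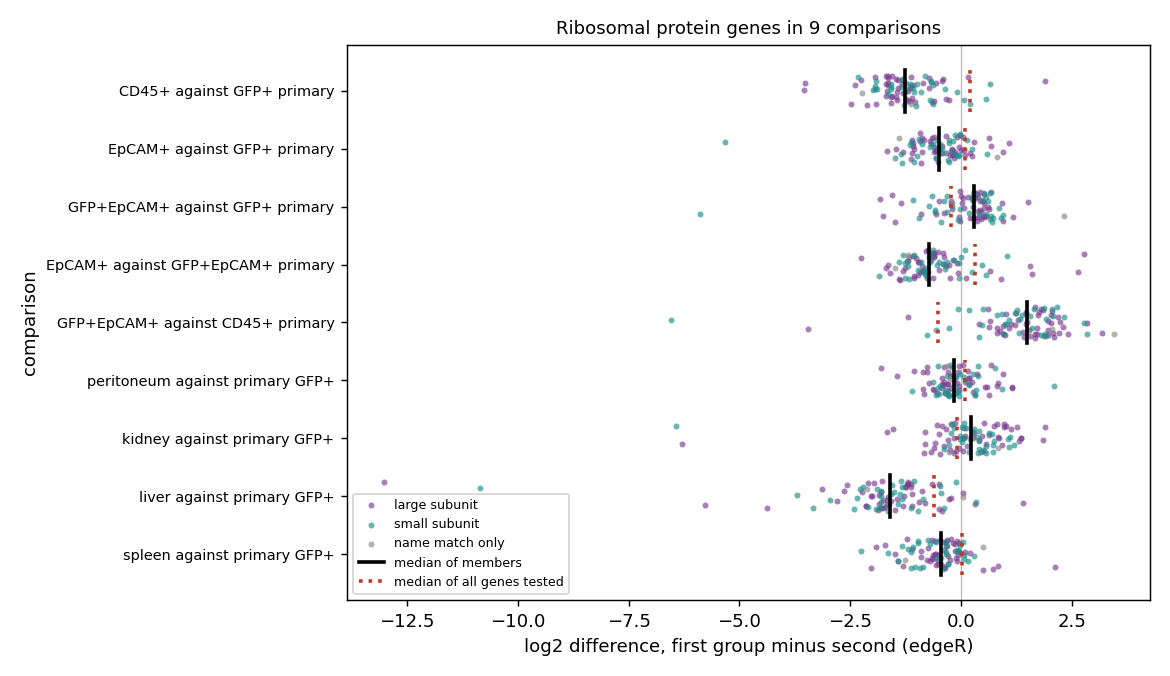
Log2 differences of the ribosomal protein genes in the 9 comparisons, 1 point per member, with the median of members as a solid line and the median of all genes tested as a dotted line. Members lie mostly below 0 for CD45+ against GFP+ (median −1.26) and for liver against primary (median −1.61), and around 0 in the peritoneum and kidney.

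The P stalk, which recruits the GTPase elongation factors to the ribosome, had lower values in leukocytes for its base protein, Rplp0. It stood at 509, 302 and 192 CPM in CD45+ cells and at 791, 1212 and 803 CPM in GFP+ primary cells. All 3 leukocyte values lay below all 3 tumour values, with a log2 difference of −1.69 (SE 0.96, edgeR adjusted p = 0.373). Rplp1, 1 of the 2 acidic proteins of the stalk, also did not overlap (−1.10, edgeR adjusted p = 0.676). Rplp2, the other acidic protein, was at 18.6, 62.4 and 30.7 CPM against 59.6, 46.6 and 55.7 CPM and overlapped (−0.28).

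Rps6, the substrate of the S6 kinases, was at 212, 199 and 83.2 CPM in CD45+ cells and 343, 254 and 297 CPM in GFP+ primary cells. The groups did not overlap, and the log2 difference was −0.90 (edgeR adjusted p = 0.695). Rpl5, which carries 5S RNA with Rpl11, was at 117, 78.6 and 122 CPM against 335, 280 and 406 CPM (−1.69, edgeR adjusted p = 0.448). Its partner Rpl11 was at 45.7, 28.6 and 23.7 CPM against 62.8, 123.5 and 76.4 CPM (−1.59, edgeR adjusted p = 0.571). Neither of the 5S binding proteins overlapped between the sorts. Rpsa, which is also known as the laminin receptor, was at 42.9, 70.8 and 9.90 CPM against 138, 206 and 136 CPM, without overlap (−1.95, edgeR adjusted p = 0.476). Rps27a is made as a fusion with ubiquitin and was at 6.08, 58.4 and 98.0 CPM against 130, 120 and 185 CPM (−1.09, edgeR adjusted p = 0.689). Mouse 1 was far below the other 2 for this gene, and the sorts still did not overlap. Rpl4, the member with most counts, was at 614, 658 and 496 CPM against 1294, 1254 and 1340 CPM (−1.11, edgeR adjusted p = 0.516). Its sums did not overlap, but its mean over cells did, at 561, 609 and 2203 CPM in CD45+ cells against 1038, 951 and 1222 CPM.

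**Figure D4:**
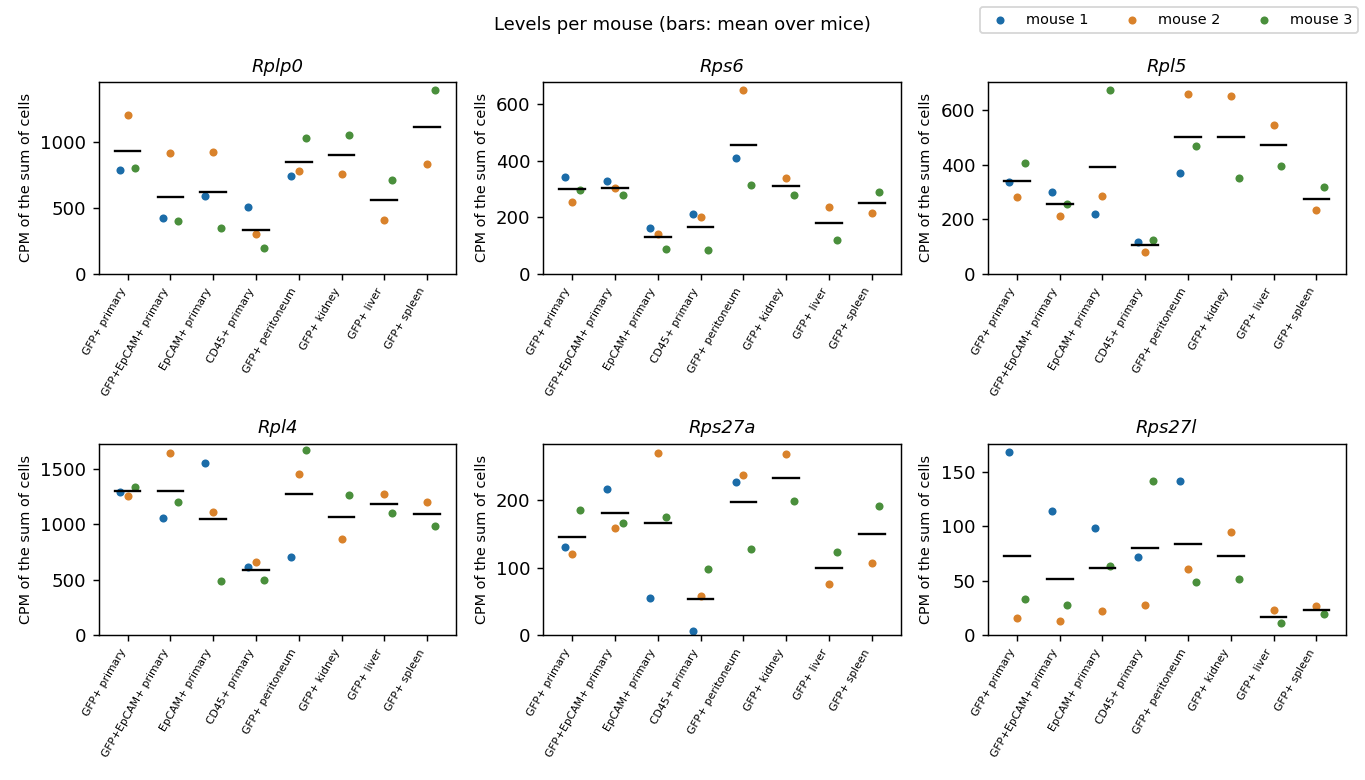
CPM of the summed counts of Rplp0, Rps6, Rpl5, Rpl4, Rps27a and Rps27l in each mouse and group, on a linear axis, 1 point per mouse. The CD45+ points lie below the GFP+ primary points for all but Rps27l, whose mice overlap.

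The lowest log2 differences were those of Rpl37a, Rpl26, Rpl22l1 and Rpl30. Rpl37a, a zinc finger protein of the large subunit, was at 1.44, 0.947 and 0.275 CPM in CD45+ cells and 8.15, 9.55 and 8.57 CPM in GFP+ primary cells (−3.54, SE 1.60, edgeR adjusted p = 0.25). Rpl26, a large subunit protein that also binds p53 messenger RNA, was at 0.862, 3.54 and 0.33 CPM against 22.8, 21.97 and 19.4 CPM (−3.52, SE 1.95, edgeR adjusted p = 0.356). Rpl22l1 had −2.48 and Rpl30 −2.41. Both Rpl37a and Rpl26 were low in all 3 leukocyte sums and nearly constant over the tumour sums.

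The 6 members with a higher fitted level in CD45+ cells were Rpl39l, Rps4l, Rps27l, Rps27, Rpl36al and Rps29, and 4 of them are paralog copies by name. Rps27l, a p53 target, was at 71.2, 27.2 and 142 CPM in CD45+ cells and 168, 15.9 and 33.3 CPM in GFP+ primary cells. Its mice overlapped, and mouse 1 of the tumour sort was the highest of the 6 sums (0.56, edgeR adjusted p = 0.86). Its parent Rps27 was at 0.575, 1.06 and 9.30 CPM against 5.86, 5.04 and 2.22 CPM, also with overlap (0.20). Rps27rt, a member of similar symbol, averaged 92.7 CPM (SD 32.9) in CD45+ cells and 144 CPM (SD 57.8) in GFP+ primary cells. How reads were divided between Rps27 and Rps27rt is not known. Rpl39l, a copy of Rpl39 known from testis, was at 2.87, 0.279 and 3.63 CPM against 0.779, 0.763 and 0.296 CPM (1.89, edgeR adjusted p = 0.414). Rpl39 itself was lower in CD45+ cells without overlap (−1.42). Rpl22l1, the copy of Rpl22, was at 7.61, 1.14 and 0.88 CPM against 15.0, 11.9 and 8.87 CPM, without overlap. Rpl22 was at 169, 21.7 and 24.8 CPM against 56.6, 76.2 and 87.1 CPM, and mouse 1 alone put its leukocyte range over the tumour range (−0.73).

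Of 4 further members with known roles in disease or regulation, all had lower fitted values in CD45+ cells and 3 overlapped between the sorts. Rps19, a small subunit protein mutated in Diamond-Blackfan anaemia, was at 2.15, 2.65 and 1.04 CPM in CD45+ cells and 5.55, 4.52 and 3.53 CPM in GFP+ primary cells, without overlap (−1.16). Rps14, lost in a form of myelodysplasia, was at 172, 156 and 59.4 CPM against 439, 164 and 202 CPM, and its mice overlapped (−1.01). Rpl38, known for its part in the translation of Hox messages, had −1.69 and Rpl13a, known for a second role in inflammatory gene silencing, had −0.34, both with overlap.

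Large and small subunit members had medians of similar size. For CD45+ against GFP+ primary cells the median log2 difference was −1.42 over 51 large subunit members, of which 49 were below 0, and −1.12 over 34 small subunit members, of which 30 were below 0. Members with a pyrimidine run over an annotated start, such as Rplp2 and Rps6 above, had a median of −1.20 (21 genes). Those without, such as Rplp0 and Rpl4, had one of −1.25 (45 genes). This split used only the letters at the annotated start. The printed Rpl4 sequence has a long run of C and T that stops shortly before its start. Some genes placed without a run could carry one where the start used in these cells differs by a few bases. These medians thus do not compare messages that begin with a run with messages that do not. CD45+ cells had the lowest mean level of the 4 primary sorts for 71 of 89 members, and GFP+ cells had the highest for 46, GFP+EpCAM+ cells for 23, EpCAM+ cells for 14 and CD45+ cells for 6. These ranks were not counted over all genes, so they have no background to be read against. Between mice, the median coefficient of variation over the 76 widely detected members was 25.6% in the GFP+ sort, 36.4% in the GFP+EpCAM+ sort, 47.4% in the EpCAM+ sort and 48.4% in the CD45+ sort.

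**Figure D5:**
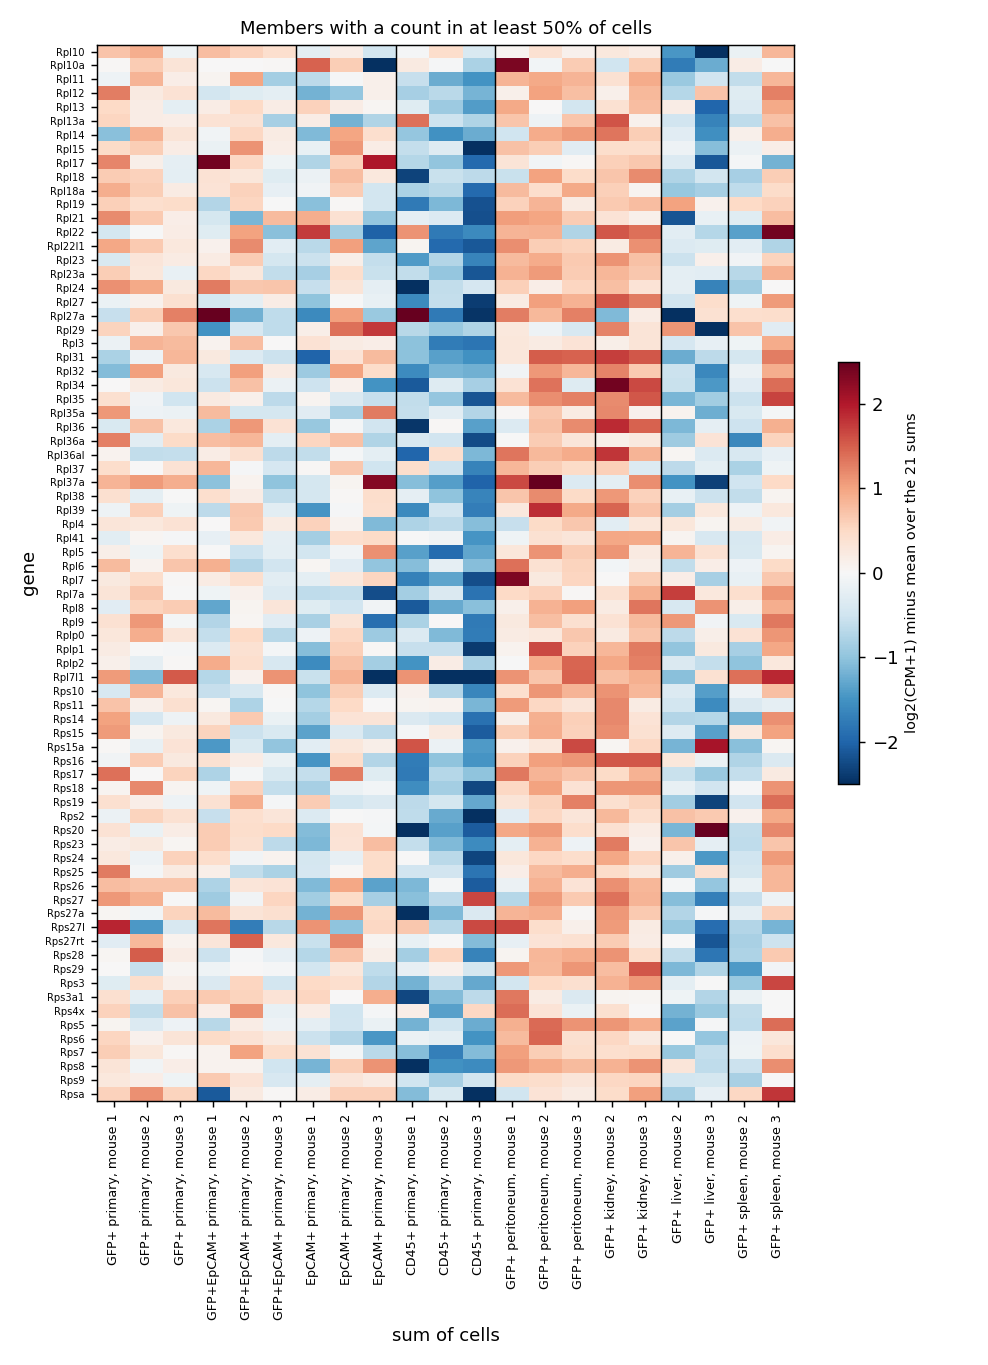
Log2(CPM + 1) of the 76 members with a count in at least 50% of cells in each of the 21 sums of a mouse and group, less the mean of the member over the sums. The CD45+ and liver columns are low for most members, and columns of the same group differ from mouse to mouse.

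GFP+EpCAM+ tumour cells against CD45+ leukocytes gave a similar picture from the other side, with the same leukocytes as in the comparison above. The fitted level was higher in the GFP+EpCAM+ cells for 80 of 87 members, with a median of 1.49 against −0.52 for all genes. The mice did not overlap for 36 members (41.4%) that were higher, against 8.44% of all genes, and for 2 that were lower, against 21.7%. The higher count was 32 (36.8%, against 8.07%) without the deepest cell of each sum and 33 (37.9%, against 9.62%) with cells of more RNA than DNA counts. The median stayed above 0 in 13 of 14 alternatives, and with cells thinned to the same depth it was −0.03. No member passed edgeR's test, which called 1.69% of all genes, and 4 had an unadjusted p under 0.05, against 23.6% of all genes. With cells weighted alike limma called 8 members higher, where 2.56% of all genes were called higher: Rpl3, Rpl4, Rpl7, Rpl24, Rpl32, Rps2, Rps3a1 and Rps18. With a pseudocount of 0.1 it called 20, against 3.58% of all genes. DESeq2 called 3, of which Rps20 was higher and the copies Rpl39l and Rps4l were lower, beside 9.32% of all genes called higher and 8.38% lower. Rps20, a small subunit protein, was at 76.3, 66.3 and 69.6 CPM in GFP+EpCAM+ cells and 6.32, 18.4 and 10.7 CPM in CD45+ cells. These values did not overlap (DESeq2 log2 difference 2.49, adjusted p = 0.0453; edgeR 2.77, adjusted p = 0.26). Rpl3, which helps shape the catalytic centre, was at 229, 369 and 217 CPM against 105, 62.9 and 59.4 CPM (2.41, edgeR adjusted p = 0.205). Rps4l was near 0 in the GFP+EpCAM+ sums, at 0.150, 0 and 0 CPM, and its 14.9 CPM in CD45+ cells of mouse 2 stood far above 0.287 and 0.66 CPM in the other mice. Rpl39l was at 0.187, 0.179 and 0.0448 CPM against 2.87, 0.279 and 3.63 CPM.

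The EpCAM sorts and the GFP+ sort of the primary tumour differed less clearly, and all 3 comparisons among them share sums. EpCAM+ cells had a median log2 difference of −0.51 from GFP+ cells over the 87 members, against 0.07 for all genes, with 72 members below 0, but with DESeq2 (0.14) and with cells of more RNA than DNA counts (0.09) it was above 0. The mice did not overlap for 7 members that were lower (8.05%), about the background of 7.43%, and none was higher, against 3.37%. This count of 7 was 23 (26.4%, against 2.82%) with cells weighted alike, 28 (32.2%, against 8.46%) without the deepest cell of each sum and 4 (4.6%, against 13.6%) with cells of more RNA than DNA counts. GFP+EpCAM+ cells had a median of 0.29 from GFP+ cells, against −0.23, with 56 of 87 members above 0, and this sign was lost in 5 of 14 alternatives, among them no TMM scaling (−0.19) and thinned cells (−0.70). The median difference of log2(CPM + 1) within mice 1 to 3 was below 0, at −0.29, −0.022 and −0.39, against −0.49, −0.21 and −0.098 for all genes. In this comparison 14 members were lower without overlap (16.1%), against 9.59% of all genes, and 1 was higher, against 2%. The lower count was 23 (26.4%, against 8.52%) with cells weighted alike and 26 (29.9%, against 9.77%) without the deepest cell of each sum. EpCAM+ cells had a median of −0.73 from GFP+EpCAM+ cells, against 0.30, with 75 of 87 members below 0, and it was below 0 in 13 of 14 alternatives and 0.39 with thinned cells. Within mice 1 to 3, the median difference of log2(CPM + 1) was only −0.43, −0.0081 and 0.014, against 0.37, 0.33 and 0.092 for all genes. There 5 members were lower without overlap, where 3.28% of all genes were, and 4 higher, where 14.1% were. EdgeR called no member and 0% of all genes in these 3 comparisons, with 1 member at an unadjusted p under 0.05 in each, and DESeq2 and limma called no member. Background shares of genes with an unadjusted p under 0.05 were 11.5%, 10.2% and 13.7%.

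Rps6 had its lowest values among these sorts in EpCAM+ cells. It was at 162, 142 and 85.9 CPM in EpCAM+ cells, at 328, 303 and 277 CPM in GFP+EpCAM+ cells and at 343, 254 and 297 CPM in GFP+ cells. All 3 EpCAM+ values lay below all 6 others, with a log2 difference of −1.85 from GFP+EpCAM+ cells (SE 1.14, edgeR adjusted p = 0.469) and −1.37 from GFP+ cells (edgeR adjusted p = 0.729). Rpl5 showed the opposite order in all mice but mouse 1, with 218, 284 and 672 CPM in EpCAM+ cells against 298, 212 and 256 CPM in GFP+EpCAM+ cells, and overlapped (0.11). Rpl17, a large subunit protein, was at 152, 39.996 and 25.7 CPM in GFP+EpCAM+ cells against 66.5, 30.8 and 23.5 CPM in GFP+ cells, so it was higher in each of the 3 mice and mouse 1 carried most of its difference of 1.496. Other extremes differed between the comparisons. For EpCAM+ against GFP+ cells the lowest values were Rps4l (−5.33, mice overlapping), Rpl7a (−1.68, without overlap), Rps27 (−1.50) and Rpl9 (−1.47), and the highest was Rpl39l (1.07). For GFP+EpCAM+ against GFP+ cells the values ran from Rps4l at −5.88 to Rps19bp1 at 2.31, and for EpCAM+ against GFP+EpCAM+ cells from Rpl27a at −2.27 to Rpl10l at 2.77, all with overlapping mice. Rpl7a, a large subunit protein, was at 9.48, 9.76 and 2.52 CPM in EpCAM+ cells, below all 3 GFP+EpCAM+ values of 14.1, 16.5 and 11.96 CPM. The summed fibroblast markers also differed between these sorts, at 2445 to 14723 CPM in GFP+ cells, 5.55 to 2400 CPM in GFP+EpCAM+ cells and 18.004 to 248 CPM in EpCAM+ cells. All 8 were detected in each sort, and their part in the members' differences was not tested.

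Metastatic GFP+ cells were compared with GFP+ primary cells, which all 4 sites share as controls. By the median of single cells the members' share was lower in value at kidney, liver and spleen than in any primary mouse. It was 0.815%, 1.25% and 0.982% in the peritoneum (1.02% ± 0.220, SD, n = 3; 85 cells), which overlapped the primary tumour. In mice 2 and 3 it was 0.935% and 0.923% in the kidney, 0.704% and 0.967% in the liver and 0.894% and 1.05% in the spleen. The share of the summed counts gave another order. Against 1.18%, 1.24% and 1.16% in the primary tumour, it was 1.59% and 1.49% in the kidney and 1.28%, 1.58% and 1.40% in the peritoneum, so both sites then lay above the primary tumour. The liver stayed below at 0.850% and 0.880%, and the spleen lay on both sides at 0.820% and 1.64%. With the stricter filter of 2000 genes and 50000 counts per cell, the kidney medians of 1.12% and 0.923% overlapped the primary medians of 1.39%, 1.08% and 1.11%. With cells of more RNA than DNA counts the kidney, at 1.18% and 1.46%, again overlapped the primary tumour, while the liver, at 0.906% and 1.09%, and the spleen, at 0.936% and 1.08%, did not.

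The liver had the lowest mean level of the 5 sites for 69 of 89 members, a rank that was not counted over all genes. Of 88 members tested, 83 had a lower fitted level than in the primary tumour, with a median of −1.61 against −0.61 for all 21988 genes, and the median was below 0 in 14 of 14 alternatives but below that of all genes in 12 of 14. With cells of more RNA than DNA counts members had a median of −1.25 and all genes one of −1.53, and without mouse 3 the medians were −1.024 and −1.026. The mice did not overlap, with liver lower, for 38 members (43.2%), against 15.7% of all genes, and 1 was higher, against 13.3%. By the mean of log2(CPM + 1) over cells, 55 members (62.5%) were lower without overlap, against 14.6% of all genes. With cells of more RNA than DNA counts the same count was 38, but 34.1% of all genes were then lower without overlap. No member passed edgeR's test, which called 0.0136% of all genes, and 3 had an unadjusted p under 0.05, against 14.2% of all genes. DESeq2 called Rpl26 alone (−8.98, adjusted p = 0.000422), with 2.82% of all genes called lower, and limma called no member. These liver sums hold 8 cells a mouse, the sum of mouse 3 has 535652 counts, and the median of DNA reads per RNA count was 0.676 and 2.43. Hepatocyte genes summed to 4.49 to 54.1 CPM in these cells, with Apoa1 and Apoa2 at 0, and the 8 leukocyte genes to 192 to 218 CPM, against 6.07 to 193 CPM in the primary tumour. The 8 fibroblast genes summed to 39.7 to 4895 CPM in the liver and 2445 to 14723 CPM in the primary tumour, with 5 of 8 lower at an unadjusted p under 0.05 (median −4.44). Kidney tubule genes summed to 42.4 to 98.9 CPM in the liver, with Kap and Miox at 0, and to 3.65 to 10.1 CPM in the primary tumour. The part of these values in the result was not tested.

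Rpl26 had no count in the liver sums, while the GFP+ primary sums held 4248 counts. Taking 3 counts over the whole group as the limit that a count of 0 allows, its summed level was at least 144-fold lower, and this covers counting error only. Rpl26 had a count in 45.2%, 44.4% and 55.6% of the GFP+ primary cells of the 3 mice. The liver sums hold 8 cells a mouse, and the error of drawing so few cells is not part of the limit. Without the deepest liver cell of mouse 2 the limit was at least 38.3-fold lower. Mouse 2 held 19922044 of the 20457610 liver counts, so the 144-fold limit rests mostly on that mouse. Rpl26 was also at 8.21 and 5.59 CPM in the kidney, 7.67, 28.6 and 3.77 CPM in the peritoneum and 7.44 and 1.15 CPM in the spleen, against 22.8, 21.97 and 19.4 CPM in the primary tumour, so only mouse 2 of the peritoneum reached the primary range. Rpl10, which joins the large subunit late, was at 17.3 and 5.60 CPM in the liver against 81.6, 92.9 and 45.8 CPM (−3.15, edgeR adjusted p = 0.366). Rpl5 did not follow, at 547 and 394 CPM against 335, 280 and 406 CPM (−0.29), and overlapped. Rps20 was at 21.7 and 302 CPM in the liver, and mouse 3 alone gave its difference of 0.33 a positive sign.

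Kidney cells gave members that were higher on summed counts and lower when cells weighed the same. On the sums, 56 of 88 members had a higher fitted level, the median was 0.23 against −0.10 for all genes, and 27 members (30.7%) were higher without overlap, against 6.84% of all genes, with 2 lower, against 6.14%. By the mean log2 level over cells, 20 members (22.7%) were lower without overlap, against 4.13% of all genes, and 5 were higher, against 13%. The median was below 0 in 5 of 14 alternatives, among them the fit with the mouse as replicate block (−0.17), cells weighted alike (−0.21 and −0.36 with pseudocounts of 1 and 0.1) and cells thinned to the same depth (−0.10). EdgeR, DESeq2 and limma called no member here, and 2 had an unadjusted p under 0.05, against 6.01% of all genes. Rpl36al, a retroposed copy of Rpl36a, was at 346 and 179 CPM in the kidney against 105, 64.5 and 65.1 CPM in the primary tumour (1.83, edgeR adjusted p = 1). It was also without overlap in the peritoneum, at 253, 176 and 189 CPM (0.95, edgeR adjusted p = 1). Rpl34 was at 285 and 167 CPM in the kidney against 52.9, 60.7 and 63.8 CPM (1.88), and Rpl22, which also binds RNA outside the ribosome, at 226 and 201 CPM against 56.6, 76.2 and 87.1 CPM (1.35). All 3 were higher in both kidney mice than in any primary mouse. Kidney leukocyte markers summed to 82.4 to 813 CPM, all 8 detected, against 6.07 to 193 CPM in the primary tumour. The 6 hepatocyte genes, all detected, summed to 50.2 to 699 CPM in the kidney and 0.249 to 112 CPM in the primary tumour. The 8 fibroblast genes summed to 1955 to 2967 CPM and 2445 to 14723 CPM, with 3 of 8 lower at an unadjusted p under 0.05 (median −2.11). The part of these markers was not tested.

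In the peritoneum and the spleen the medians of members lay closer to 0 than in the liver. In the peritoneum the median was −0.16 against 0.08 for all genes, with 58 of 88 members below 0, and 3 of 14 alternatives gave a median above 0. Within mice 1 to 3 the median difference of log2(CPM + 1) was above 0, at 0.16, 0.35 and 0.33, against 0.38, −0.036 and 0.33 for all genes. Without TMM scaling the fitted median was 0.27, and 12 members (13.6%) were higher without overlap on CPM, against 4.88% of all genes, with 1 lower, against 1.53%. By the mean of log2(CPM + 1) over cells the order turned, with 3 higher (3.41%), against 6.65%, and 5 lower (5.68%), against 0.75%. Rps21, a small subunit protein with few counts, had the highest fitted difference of 2.08, at 2.81, 19.1 and 7.50 CPM against 2.38, 2.40 and 1.75 CPM. Rpsa had one of the lowest, at 65.2, 117 and 107 CPM against 138, 206 and 136 CPM (−1.10), without overlap. In the spleen the median was −0.45 against 0.01, with 75 of 88 members below 0, and it was above 0 in 1 alternative, cells weighted alike with a pseudocount of 0.1 (0.07). There 14 members (15.9%) were lower without overlap, against 6.2% of all genes, and 1 was higher, against 6.76%. Without the deepest cell of each sum 22 (25%) were lower, against 5.01%, and with cells of more RNA than DNA counts 12 (13.6%), near the background of 12%. The 8 epithelial markers, all detected, summed to 222 to 349 CPM in the spleen and 920 to 9934 CPM in the primary tumour, with 5 of 8 lower at an unadjusted p under 0.05 (median −3.36), and their part was not tested. The 2 spleen mice disagreed, with a median difference of log2(CPM + 1) from the primary sum of the same mouse of −0.57 in mouse 2 and 0.26 in mouse 3. Rps3, which also takes part in DNA repair, was at 420 CPM in mouse 2 and 2570 CPM in mouse 3, below and above all 3 primary sums of 650, 1086 and 876 CPM. EdgeR, DESeq2 and limma called no member at either site, none had an unadjusted p under 0.05 (6.1% and 6.16% of all genes did), and edgeR called 0.0091% of all genes in the peritoneum and 0% in the spleen and the kidney.

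The machinery around the ribosome was read from lists of other genes. For CD45+ against GFP+ primary cells, none of the genes of these lists passed edgeR's test. The median was −1.94 over 50 ribosome biogenesis genes, of which 13 were lower and none higher at an unadjusted p under 0.05, where 11.4% of all genes were lower and 5.89% higher. It was −1.58 over 77 mitochondrial ribosomal protein genes (16 lower), −1.37 over 34 initiation and elongation factors (6 lower) and −0.99 over 22 genes of mTORC1 and S6 kinase signalling (1 lower and 2 higher), all against 0.20 for all genes. Rrs1, a factor for large subunit assembly, had the lowest difference of the biogenesis genes, and Noc3l had the highest at 2.70. Rrs1 was at 2.54 CPM in CD45+ cells and 185 CPM in GFP+ primary cells on average (−6.29, edgeR adjusted p = 0.0851). The 6 tested ribosome partners that the symbol rule misses had a median of −0.84, from Rack1 at −2.06 to Tpt1 at −0.04. Rack1, a scaffold on the small subunit, was at 114 against 378 CPM (edgeR adjusted p = 0.35). Against GFP+EpCAM+ cells, 2 genes of these lists passed: Rrs1 was higher in GFP+EpCAM+ cells (6.85, edgeR adjusted p = 0.0454), and Sesn2, an inhibitor of mTORC1 signalling, was lower (−9.61, edgeR adjusted p = 0.0419), from 42.8 CPM on average in CD45+ cells. The 15 p53 targets had a median of −0.01 for CD45+ against GFP+ primary cells. In the liver, biogenesis genes had a median of −0.85, initiation and elongation factors −0.97 and mitochondrial ribosomal protein genes −1.53, against −0.61 for all genes.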

How the data were processed

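Per the submitters' processing notes, STAR, kallisto and Bowtie 1.0 and build mm9 were used; what each did is not stated in the sources used here. The RNA values deposited by the authors are expected counts per gene (97.361% exactly whole), with no normalization, and were rounded after summing. The DNA values are counts of reads deposited by the authors, used here only per RNA count. Of 24520 rows, 92 rows of spike-ins (0.000348% of all counts) and 4 of repeated symbols were left out. Counts were summed per mouse and group. EdgeR 4.0.16 (R 4.3.3; filterByExpr, TMM, quasi-likelihood test, Benjamini-Hochberg over all genes) was fitted to 12 sums of the primary sorts and, separately, 12 sums of GFP+ cells by site; the common biological coefficient of variation was 1.16 and 1.08. Alternatives used limma 3.58.1 and DESeq2 1.42.0; the functions were tested on simulated data. Rpl28 passed neither filter on low counts, and Rpl3l passed only that of the sites. Same mouse numbers mean the same animal, per the labels; deviations of same-mouse sums correlated at a median of 0.0619 (primary sorts) and 0.084 (sites), against −0.0429 and −0.0601 for other pairs. Named genes were members with a known role, those called and, per comparison, the 4 highest and 4 lowest. Rpl3, Rpl4, Rpl8, Rps3 and Rps27rt, and further values of named genes, were chosen after their values were seen. The members, gene lists and comparisons were chosen with earlier results of these data known.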

Additional observations from a re-analysis of the deposited data

How the results depend on the processing

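Across 14 alternatives and 9 comparisons, 120 of 126 counts of members called stayed at 0, and 70 of 126 medians moved by less than the spread between mice (0.303 for the primary sorts, 0.269 for the sites). Calls appeared with cells weighted alike for CD45+ against GFP+ (23 and 38 members with pseudocounts of 1 and 0.1) and for GFP+EpCAM+ against CD45+ (8 and 20), and with DESeq2 for the latter (3) and for liver (1). The median log2 difference of ribosomal protein genes moved as follows. CD45+ against GFP+ primary: DESeq2 −0.58, cells weighted alike −2.35 and −3.35, thinned −0.77, more RNA than DNA −0.84, leaving out a mouse −1.69 to −0.96. EpCAM+ against GFP+ primary: DESeq2 0.14, weighted alike −0.86 and −1.02, without the deepest cell of each sum −0.84, more RNA than DNA 0.087, leaving out a mouse −0.47 to −0.39. GFP+EpCAM+ against GFP+ primary: DESeq2 0.61, no TMM −0.19, weighted alike −0.40 and −0.45, thinned −0.70, without the deepest cell −0.20, leaving out a mouse 0.017 to 0.67. EpCAM+ against GFP+EpCAM+ primary: DESeq2 −0.42, no TMM −0.12, weighted alike −0.32, thinned 0.39, more RNA than DNA −0.10, leaving out a mouse −1.02 to −0.45. GFP+EpCAM+ against CD45+ primary: DESeq2 1.15, no TMM 1.00, weighted alike 1.83 and 2.78, thinned −0.026, only the groups compared 1.17, without the deepest cell 0.67, more RNA than DNA 1.02, leaving out a mouse 1.00 to 1.88. Peritoneum against primary GFP+: no TMM 0.27, leaving out a mouse −0.49 to 0.20. Kidney against primary GFP+: weighted alike −0.21 and −0.36, thinned −0.10, leaving out a mouse −0.41 to 0.75. Liver against primary GFP+: DESeq2 −1.21, no TMM −0.84, weighted alike −1.31 and −2.16, thinned −0.78, without the deepest cell −2.10, more RNA than DNA −1.25, leaving out a mouse −2.53 to −1.02. Spleen against primary GFP+: no TMM −0.13, weighted alike −0.014 and 0.072. With the mouse as replicate block, the paired fits gave −0.17 for the kidney, −1.97 for the liver and −0.75 for the spleen, and no member was called. The causes were not tested. Leaving out the deepest cell and keeping cells of more RNA than DNA counts were chosen after seeing the data. Of 2986 values of named genes under alternatives, 347 had the opposite sign and 21 were calls. With 2 or 3 mice a group and a biological coefficient of variation over 1, single members had standard errors near 1 or above on the log2 scale.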

Other observations

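The 6 bulk libraries were in no comparison. Their share of RNA counts in ribosomal protein genes was 1.19% (2369371 counts, 83 members detected) and 2.46% (19160676 counts, 85 members) in GFP+ cells of the primary tumour of mice 1 and 2. It was 1.98% in GFP+ cells (2740681 counts) and 2.06% in GFP- cells (785644 counts) of the peritoneum of mouse 1. The CD45+ bulk library of mouse 1 had 0.104% of 121118 counts, with 45 members among 19644 genes detected, the lowest share of the 6. It detected more genes than the GFP+ primary bulk library of mouse 1, which had 16043 at 2369371 counts. The summed single CD45+ cells of mouse 1 had a share of 0.626%. The reason for these differences was not tested. The GFP- library of the primary tumour of mouse 1 had 1.12% of only 8520 counts, below the filter used for cells.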
